A study of Mus musculus with 12 samples.

Results

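The genes described are 33 cell cycle genes read out in Leydig cells, which make testosterone in the interstitium of the testis: cyclins, the kinases and checkpoint proteins of mitosis, the replicative helicase and its clamp, the enzymes of deoxynucleotide supply, and proteins of the centromere and spindle. They were chosen by name, as all non-control probes that the array files assign to one of these genes, with Cdk1 under its older symbol Cdc2a. They had 54 of the 41174 probes on the array. After a filter on dim probes 37 of those probes and 30 of the 33 genes remained, among 15827 tested of 27670 genes or transcripts named in all.

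The Leydig cells were cut by laser capture from frozen sections of the right testis of male C57BL/6J mice, aged 21 weeks. DEHP mice were given the plasticiser di-(2-ethylhexyl) phthalate in corn oil by gavage, in a daily dose of 200 mg per kg for 21 days. Vehicle mice were given corn oil alone. The arrays hold 2 DEHP mice, numbered 1 and 4 in the labels, and 3 vehicle mice, numbered 1, 2 and 4. The labels speak of 4 mice in each group, and the remaining mice are not analysed here. The RNA of each mouse came from a single capture cap and went through 2 rounds of amplification. Every DEHP mouse met every vehicle mouse on 2-colour Agilent arrays in both dye orientations, which gave 12 arrays of 5 animals. The comparison asks what exposure to DEHP does to gene expression in adult Leydig cells.

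A cell that divides passes through growth, DNA replication and mitosis in order. Cyclins, which rise and are destroyed at set points of that cycle, switch on the cyclin-dependent kinases that drive each step. The MCM proteins form the ring that unwinds DNA ahead of the replication fork, and mitotic kinases and checkpoint proteins govern the sorting of chromosomes. Adult Leydig cells divide rarely, whereas spermatogonia divide by mitosis and spermatocytes by meiosis in the tubules beside them. Cyclin A1 belongs to that male germ line and is needed for meiosis.

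Every value below is a log2 level in 1 mouse minus the gene's mean over the 5 mice, estimated from all arrays of that mouse after the effect of the dye was removed. A value of 1.00 is therefore a level 2-fold above the mean of the mice. Levels of different genes cannot be compared with one another on these arrays. Standard errors of differences between DEHP and vehicle refer to 2 against 3 mice, and comparisons of single mice compare extracts and not conditions. The labels call the RNA samples independent mice.

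Between 35.5% and 54.4% of the probe spots of a channel were well above background. The 2 arrays of a pair of mice, in opposite dye orientations, correlated across genes at r = 0.61 to 0.95. All 10 Leydig cell markers were measured, yet all 14 spermatid markers were too, and each passed the filter on dim probes in captures labelled as Leydig cells. The summed intensity of the Leydig cell markers was 201972 in DEHP mouse 1, 68082 in DEHP mouse 4, and 83125, 175848 and 200338 in vehicle mice 1, 2 and 4. The summed intensity of the spermatid markers was 560435 in DEHP mouse 1, 698529 in DEHP mouse 4, and 465039, 301160 and 307506 in vehicle mice 1, 2 and 4. DEHP mouse 4 and vehicle mouse 1 thus had the lowest Leydig marker sums, and DEHP mouse 4 had the highest spermatid sum. By its brightest probe, every spermatocyte and spermatid marker was well above background on some array. The spermatogonial genes Dmrt1, Nanos2 and Nanos3 were well above background on none.

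Ccnb1, Ccnb2, Plk1 and Bub1, which differed between single mice by some of the largest amounts, are shown with the 150 bases before their transcription start, to let their proximal promoters be read side by side. These 4 were chosen after their values were seen. The sequences are from RefSeq, build GRCm38.p6, 5′ to 3′ on the strand of the gene. Capitals mark matches, on either strand, to CCAAT, to the E2F letters TTCCCGC or TTCGCGC or TTGCCGC or TTGGCGC, to the CHR letters TTTGAA and to the CRE half-site letters TGACG.
Ccnb1 (chr13:100786487-100786636, minus strand): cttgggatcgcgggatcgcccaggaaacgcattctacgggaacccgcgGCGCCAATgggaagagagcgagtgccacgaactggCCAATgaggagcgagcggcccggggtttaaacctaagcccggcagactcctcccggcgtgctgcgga
Ccnb2 (chr9:70421555-70421704, minus strand): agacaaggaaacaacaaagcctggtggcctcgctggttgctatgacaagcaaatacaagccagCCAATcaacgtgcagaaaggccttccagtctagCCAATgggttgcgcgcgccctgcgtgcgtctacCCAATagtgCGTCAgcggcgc
Plk1 (chr7:122159285-122159434, plus strand): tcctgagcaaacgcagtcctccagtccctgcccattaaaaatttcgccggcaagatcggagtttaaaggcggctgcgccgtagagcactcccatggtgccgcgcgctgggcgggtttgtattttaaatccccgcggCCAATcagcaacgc
Bub1 (chr2:127831860-127832009, minus strand): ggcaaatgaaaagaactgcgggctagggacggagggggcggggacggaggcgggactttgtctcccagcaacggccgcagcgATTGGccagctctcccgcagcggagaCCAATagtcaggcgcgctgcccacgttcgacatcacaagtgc
The Ccnb1 match to TTGGCGC overlaps its first CCAAT box. All 4 windows held CCAAT, with 3 copies in Ccnb2. In a window of 250 bases before to 50 bases after the start, CCAAT occurred in 37.4% of 32851 mouse promoters and in 22 of the 27 members with a promoter in the table. In that window the CHR letters occurred in 17.9% of all promoters and in 11 of 27 members, the E2F letters in 9.57% and in 9 of 27, and the CRE half-site in 20.8% and in 10 of 27. Of the 4 genes shown, Ccnb2 and Plk1 held the CHR letters in that longer window, Ccnb2 at positions -167 and 5 and Plk1 at position 31, counted in bases from the start. A match is a run of letters and not a measured binding site.

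In DEHP against vehicle mice no cell cycle gene passed the test, and neither did any other gene: limma called 0 of 15827 genes at an adjusted p under 0.05, which is 0% of those tested. At an unadjusted p under 0.05, 81 genes (0.512%) were higher and 55 (0.348%) were lower with DEHP, and 0 of the 30 members were in either set. Of the 30 members, 16 had differences above 0 and 14 below, with a median of 0.02 against a median of -0.01 over all genes. The differences ran from -0.46 for Ccna2 and Mcm7 to 0.60 for Cenpf. Both DEHP mice lay above all 3 vehicle mice for 1 member, Cenpf, against 3.94% of all genes, and below all 3 for 2 members, Ccna2 and Mcm2, against 5.23% of all genes. Those shares, 3.33% and 6.67% of the members, are close to the background. With each array centred on its median in place of loess, the groups overlapped for all 3 of these genes, and after scaling between arrays they overlapped for Cenpf. Other members came apart instead. Both DEHP mice were below all vehicle mice for Mcm7 and Tk1 with median centring, and for Mcm5 without background subtraction. They were above all vehicle mice for Rrm2 with the scanner's processed signals. The share of all genes was not counted for these settings. The median difference of the members did not keep its sign: it was 0.13 without DEHP mouse 1 and fell to -0.12 without DEHP mouse 4.

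**Figure D1:**
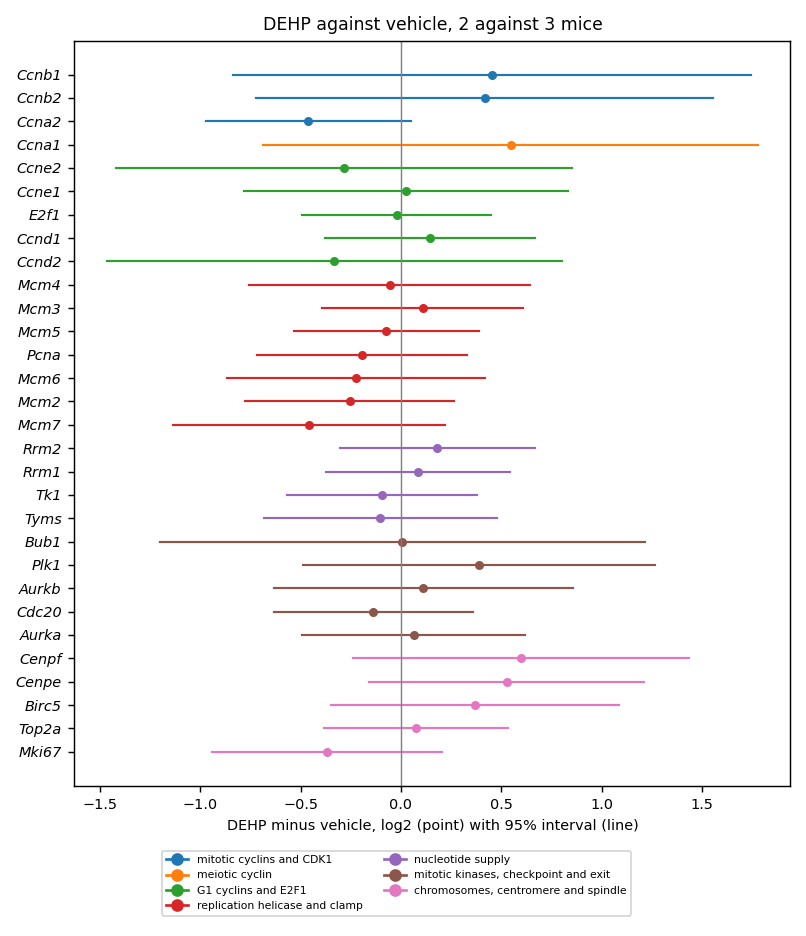
Difference between DEHP and vehicle mice (2 against 3) on the log2 scale for the 30 tested genes, with limma's 95% interval as a line and colour by role. All intervals include 0, and the widest ones belong to Ccnb1, Ccnb2, Ccna1, Ccnd2, Ccne2 and Bub1.

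Among the mitotic cyclins, Ccna2, whose cyclin A2 works in replication and at the entry into mitosis, was the member with the lowest unadjusted p. Its values were -0.40 and -0.15 in DEHP mice 1 and 4, against 0.35, 0.08 and 0.13 in vehicle mice 1, 2 and 4. Both DEHP mice were below every vehicle mouse, and all 12 arrays gave a DEHP-over-vehicle ratio at or below 0. The difference was -0.46 with a standard error of 0.21 (unadjusted p = 0.0686, limma's adjusted p = 1.00).

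Ccnb1, whose cyclin B1 activates CDK1 to start mitosis, followed another pattern. Its values were -0.36 in DEHP mouse 1, 0.90 in DEHP mouse 4, 0.55 in vehicle mouse 1, -0.71 in vehicle mouse 2 and -0.38 in vehicle mouse 4. DEHP mouse 4 and vehicle mouse 1 were high and the other 3 mice low, so the groups overlapped. The DEHP minus vehicle difference was 0.45 with a standard error of 0.52.

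Ccnb2 encodes cyclin B2, the second B-type cyclin. It stood at -0.31 and 0.81 in DEHP mice 1 and 4, against 0.45, -0.59 and -0.36 in vehicle mice 1, 2 and 4. The order of the mice was that of Ccnb1, with a difference between groups of 0.42 and a standard error of 0.46. Cdk1, the partner kinase of these cyclins, had 2 probes, of which 1 was well above background on a single array and the other on none, so no level can be given.

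Ccna1, the meiotic cyclin, ranged furthest between the DEHP mice after loess. It read -0.42 in DEHP mouse 1 and 1.07 in DEHP mouse 4, against 0.20, -0.65 and -0.20 in vehicle mice 1, 2 and 4. DEHP mouse 4 was highest and vehicle mouse 2 lowest. The group difference was 0.55 with a standard error of 0.50, and without DEHP mouse 4 it was -0.20.

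The G1 cyclins differed among themselves. Ccne1 and Ccne2 encode the E-type cyclins, which drive entry into replication. Ccne1 measured -0.29 and 0.32 in DEHP mice 1 and 4, against 0.25, 0.19 and -0.47 in vehicle mice 1, 2 and 4. Ccne2 measured -0.83 and 0.49 in the DEHP mice, and 0.59, -0.05 and -0.21 in the vehicle mice. Both genes were lower in DEHP mouse 1 than in DEHP mouse 4, and for both the groups overlapped. Ccnd2, whose cyclin D2 links growth signals to the cycle, ran the other way: 0.28 and -0.68 in the DEHP mice, and -0.55, 0.30 and 0.64 in vehicle mice 1, 2 and 4. Ccnd1, the other D-type cyclin here, lay between -0.13 and 0.27 in all mice. Its probe was well above background on 10 of 12 DEHP and 9 of 12 vehicle readings. E2f1, a transcription factor that switches on replication genes, lay between -0.10 and 0.07. The E2f1 probe was well above background on 2 of 12 DEHP and 6 of 12 vehicle readings. DEHP minus vehicle was -0.33 (standard error 0.46) for Ccnd2, -0.28 (0.46) for Ccne2, 0.15 (0.21) for Ccnd1, 0.02 (0.33) for Ccne1 and -0.02 (0.19) for E2f1. The narrow ranges of Ccnd1 and E2f1 did not hold under every scaling. With the scanner's processed signals, vehicle mouse 1 minus vehicle mouse 2 was -0.92 for Ccnd1, against -0.19 after loess. DEHP mouse 4 minus DEHP mouse 1 was then -1.28 for E2f1, against -0.17 after loess.

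**Figure D2:**
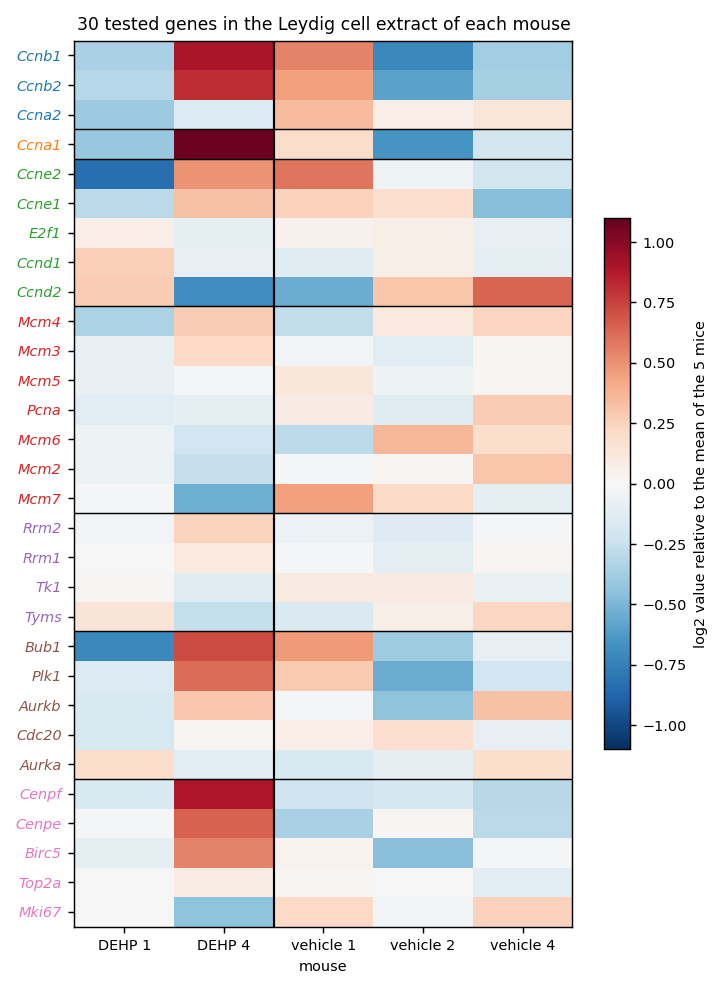
Values of the 30 tested genes (rows, with lines between roles: mitotic cyclins, meiotic cyclin, G1 genes, helicase and clamp, nucleotide supply, kinases and checkpoint, chromosomes and spindle) in the 5 mice (columns), as log2 relative to the mean of the mice. DEHP 4 is the highest of the 5 mice for 14 genes, among them Ccna1, Ccnb1, Ccnb2, Bub1 and Cenpf. The share of all genes highest in DEHP 4 was not counted.

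Of the 7 helicase and clamp genes, 6 had a difference below 0 with a median of -0.19, though none passed the test. Over all genes, 8177 of 15827 were below 0. For the helicase and clamp the count was 6 of 7 under all 5 scalings tried, with medians from -0.20 to -0.12. The scalings use the same 5 mice and are not separate evidence. Mcm7, a subunit of the MCM ring, read -0.01 and -0.54 in DEHP mice 1 and 4, against 0.45, 0.21 and -0.10 in vehicle mice 1, 2 and 4, a difference of -0.46 with a standard error of 0.27. Vehicle mouse 4 was below DEHP mouse 1, so the groups overlapped for Mcm7, though not with median centring. Mcm2, another subunit, read -0.06 and -0.25 in the DEHP mice and -0.02, 0.02 and 0.31 in the vehicle mice. Here all 12 arrays, which repeat the same 5 mice, gave ratios below 0. The difference for Mcm2 was -0.26 with a standard error of 0.21 (limma's unadjusted p = 0.271). Mcm6 differed by -0.23, Pcna (the sliding clamp) by -0.19, Mcm5 by -0.07 and Mcm4 by -0.06. Mcm3 was the exception at 0.11. Mcm4 separated the DEHP mice, at -0.35 in mouse 1 and 0.28 in mouse 4, more than it separated the groups.

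**Figure D3:**
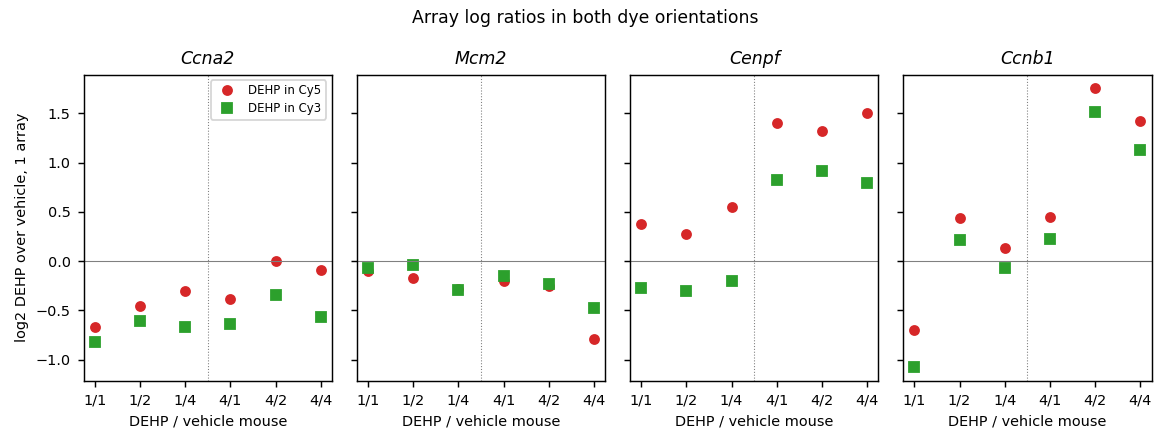
Log2 ratio of DEHP over vehicle on each of the 12 arrays for Ccna2, Mcm2, Cenpf and Ccnb1, by pair of mice, with DEHP RNA in Cy5 (circles) or Cy3 (squares). All 12 ratios of Ccna2 and Mcm2 are at or below 0, while Cenpf lies above 0 in both orientations only against DEHP mouse 4.

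Of the nucleotide supply genes, Tyms ranged furthest between mice. Rrm1 and Rrm2 encode the subunits of ribonucleotide reductase, and differed between groups by 0.09 and 0.18. Tyms, thymidylate synthase, and Tk1, thymidine kinase, both differed by -0.10. Across the 5 mice Rrm1 ranged from -0.10 to 0.11, Rrm2 from -0.14 to 0.25, Tk1 from -0.13 to 0.10 and Tyms from -0.27 to 0.22. Tyms was called different in all 4 comparisons of single mice, with -0.41 for DEHP mouse 4 minus DEHP mouse 1, which became 0.25 with median centring. Tk1, whose probe was well above background on 8 of 12 DEHP and 9 of 12 vehicle readings, moved with the scanner's processed signals to -0.82 between groups and to -1.08 between the DEHP mice. The standard errors of the 4 group differences, between 0.18 and 0.23, were as large as these differences or larger.

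Among the kinases, checkpoint and exit genes, Bub1, a kinase of the spindle checkpoint, had almost no difference between groups (0.01, standard error 0.49) but a wide range between mice. It read -0.71 in DEHP mouse 1, 0.72 in DEHP mouse 4, 0.47 in vehicle mouse 1, -0.39 in vehicle mouse 2 and -0.09 in vehicle mouse 4. Plk1, a kinase that acts from mitotic entry to cell division, read -0.15 and 0.61 in the DEHP mice and 0.29, -0.54 and -0.21 in the vehicle mice, a difference of 0.39 with a standard error of 0.35. DEHP mouse 4 was again highest for both. Aurkb, the kinase of the chromosomal passenger complex, differed by 0.11 and Aurka, the spindle pole kinase, by 0.06. Cdc20, which activates the complex that ends mitosis, differed by -0.14. Bub1b had 1 probe, well above background on 3 of 12 DEHP and 0 of 12 vehicle readings, and did not enter the test. Those 3 readings were all repeat arrays of DEHP mouse 4.

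The chromosome, centromere and spindle genes included the only member with both DEHP mice highest. Cenpf, a kinetochore protein, read -0.17 and 0.89 in DEHP mice 1 and 4, against -0.22, -0.19 and -0.30 in vehicle mice 1, 2 and 4. DEHP mouse 1 lay just above vehicle mouse 2, and DEHP mouse 4 far above all others. The difference was 0.60 with a standard error of 0.34. Its dye effect of 0.30 was also the largest of the members: against DEHP mouse 1 the ratios were below 0 with DEHP in Cy3 and above 0 with DEHP in Cy5. Cenpe, a kinetochore motor, read -0.02 and 0.65 in the DEHP mice and -0.36, 0.02 and -0.30 in the vehicle mice, a difference of 0.53 with a standard error of 0.28. Birc5, the survivin subunit of the passenger complex, differed by 0.37 (standard error 0.29). Mki67, the proliferation marker Ki-67, read 0.00 and -0.44 in the DEHP mice and 0.22, -0.03 and 0.25 in the vehicle mice, a difference of -0.37 with a standard error of 0.23. Top2a, a topoisomerase that untangles chromosomes, differed by 0.08 and was within 0.12 of the mean in every mouse. Kif11, a spindle motor, had 3 probes, none well above background on any array.

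The largest differences lay between mice of the same treatment, though a difference of 2 single mice and a difference of group means are unlike measures. For Ccna2, Mcm2, Mcm5, Mcm6 and Pcna the group difference was the larger in size. It was -0.46 for Ccna2 against 0.25 between the DEHP mice, and -0.19 for Pcna against 0.01. Ccna1 was 2.82-fold, Bub1 2.70-fold, Ccne2 2.50-fold and Ccnb1 2.39-fold higher in the extract of DEHP mouse 4 than in that of DEHP mouse 1, and Ccnd2 was 1.95-fold lower. On the 12 arrays limma called 17 of 30 members higher and 9 lower in mouse 4 at an adjusted p under 0.05, where 36.3% of all genes were higher and 41.1% lower. The members' shares were 56.7% higher and 30% lower. The median of their differences was 0.22, against -0.05 over all genes. The repeated arrays share the 2 extracts, so this compares those extracts and not animals in general.

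The vehicle mice also differed from one another. In vehicle mouse 1 against vehicle mouse 2, 12 members were higher and 5 lower, beside 33% and 38% of all genes. In vehicle mouse 1 against vehicle mouse 4, 10 were higher and 8 lower, beside 33.5% and 35.3%. In vehicle mouse 2 against vehicle mouse 4, 5 were higher and 15 lower, beside 29.1% and 28.3%. Ccnb1 and Ccnb2 were called in all 3 vehicle pairs, with vehicle mouse 1 highest and vehicle mouse 2 lowest. Ccnb1 was 1.25 higher in vehicle mouse 1 than in vehicle mouse 2 on the log2 scale, which equals its 1.26 between the DEHP mice to within their standard errors of 0.04.

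Spermatid, spermatocyte and Leydig cell markers moved between the same mice. The median of the 14 spermatid markers was -0.02 and 0.76 in DEHP mice 1 and 4, against 0.30, -0.68 and -0.42 in vehicle mice 1, 2 and 4. The median of 14 spermatocyte markers was -0.23 and 0.22 in the DEHP mice and 0.36, -0.27 and -0.15 in the vehicle mice. The median of 7 spermatogonial markers was -0.15 and 0.12 in the DEHP mice and -0.05, -0.06 and -0.04 in the vehicle mice. It was thus not high in vehicle mouse 1. The median of the 10 Leydig markers was 0.71 and -0.81 in the DEHP mice and -0.55, 0.29 and 0.52 in the vehicle mice. Spermatid and spermatocyte medians were thus high in DEHP mouse 4 and vehicle mouse 1, as Ccnb1 and Ccnb2 were. The Leydig median and Ccnd2, on its brightest probe, were low there. Of the other passing Ccnd2 probes, 1 read 0.21 in DEHP mouse 4 and -0.40 in vehicle mouse 1, and 1 read -0.38 and -0.25 in those mice. The medians of the macrophage, endothelial and peritubular myoid markers were low there too: -0.26, -0.17 and -0.95 in DEHP mouse 4, and -0.39, -0.66 and -0.36 in vehicle mouse 1. Between the DEHP mice limma called 7 of 10 macrophage, 7 of 7 endothelial and 6 of 6 myoid markers lower in mouse 4, and none of these higher, where 41.1% of all genes were lower. With median centring the endothelial median difference between the DEHP mice turned from -0.23 to 0.05. Between the DEHP mice all 14 spermatid markers were higher and all 10 Leydig markers lower in mouse 4, under each of the 5 scalings. Other lists in DEHP against vehicle had medians of 0.14 for 7 spermatogonial, -0.25 for 12 Sertoli cell, -0.01 for 10 macrophage, -0.08 for 7 endothelial, -0.87 for 6 peritubular myoid and -0.25 for 2 blood markers, beside 0.56 for the spermatid, 0.00 for the spermatocyte and -0.19 for the Leydig markers. The spermatocyte median changed sign with the scaling, from -0.04 to 0.03, as did the macrophage median, from -0.17 to 0.02. No marker passed the test. The part of these markers in the cyclin values was not tested. Fewer cells of a type and less RNA per cell cannot be told apart in such captures.

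Values of single markers stand beside these medians. Prm1, a sperm protamine, read 0.32 and 0.88 in the DEHP mice and -0.13, -0.73 and -0.34 in the vehicle mice. Insl3, a Leydig cell hormone, read 0.91 and -1.29 in the DEHP mice and -1.02, 0.50 and 0.90 in the vehicle mice. Star, which delivers cholesterol for steroid synthesis, read 0.81 and -0.72 in the DEHP mice and -0.95, 0.57 and 0.29 in the vehicle mice. Sycp3, a protein of meiotic chromosomes, read -0.39 and 0.23 against 0.56, -0.42 and 0.02, and Cd68, a macrophage protein, lay within 0.18 of the mean in every mouse.

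**Figure D4:**
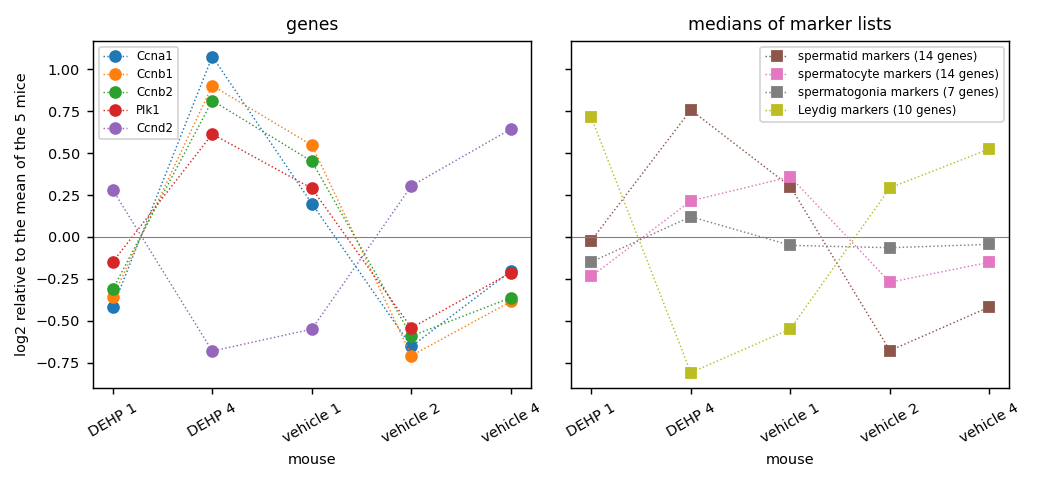
Left, log2 values of 5 genes by mouse; right, medians of 4 marker lists by mouse on the same scale, relative to the mean of the 5 mice; dotted lines only join points and give no order. Ccna1, Ccnb1, Ccnb2 and Plk1 and the spermatid median are highest in DEHP 4 and lowest in vehicle 2, and Ccnd2 and the Leydig median are lowest in DEHP 4. The 5 genes are a selection of those tested, each shown by its brightest probe.

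The direction of a difference between single mice depended on the scaling for some members. Median centring of each array in place of loess moved the median of all genes in DEHP mouse 4 minus DEHP mouse 1 from -0.05 to 0.30. Then 24 members were called higher and 1 lower, beside 54.7% and 16.3% of all genes. In all, 16 members were called higher in mouse 4 under all 5 scalings tried: Ccna1, Ccna2, Ccnb1, Ccnb2, Ccne1, Ccne2, Bub1, Plk1, Aurkb, Birc5, Cdc20, Cenpe, Cenpf, Mcm3, Mcm4 and Rrm2. Only Ccnd2 was called lower under all 5. The share of all genes called under all 5 scalings was not counted. The sign differed between scalings for 9 members: Mcm2, Mcm5, Mcm6, Mcm7, Pcna, Tyms, Tk1, Mki67 and Aurka. Ccna1 ranged from 1.40 to 2.01, Bub1 from 1.39 to 2.08, Ccne2 from 1.30 to 2.51 and Ccnb1 from 1.12 to 1.87 over the scalings, and Ccne2 was highest of these with the scanner's processed signals, while Mcm7 ranged from -0.53 to 0.29.

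**Figure D5:**
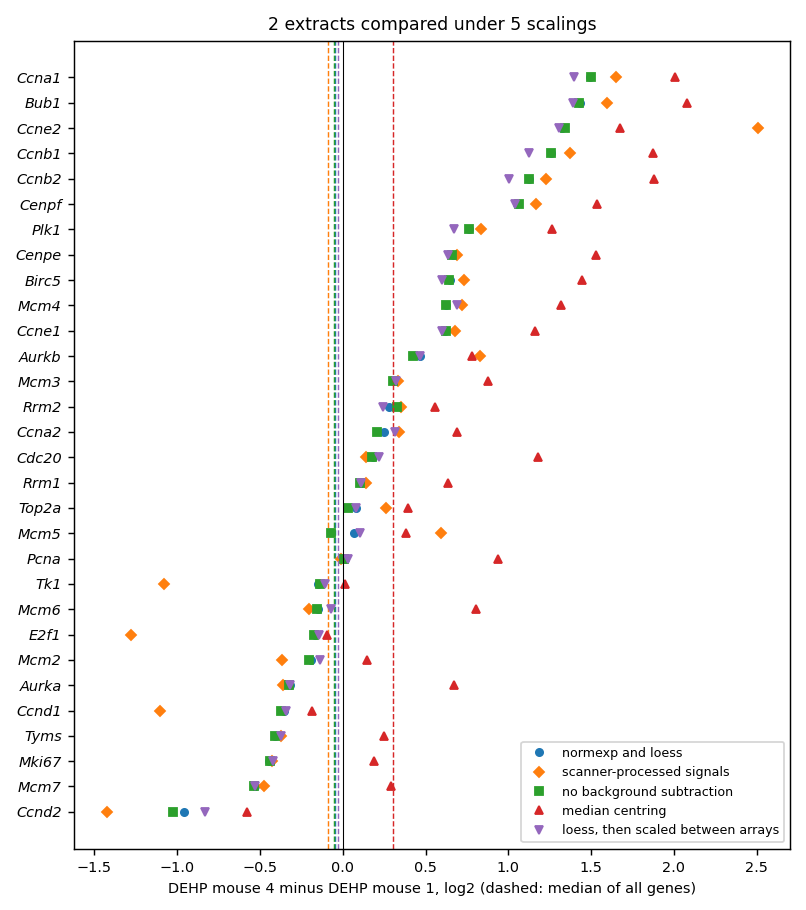
DEHP mouse 4 minus DEHP mouse 1 on the log2 scale for 30 genes under 5 scalings, with the median of all genes under each as a dashed line. Ccna1, Bub1, Ccne2 and Ccnb1 lie to the right under all 5, Ccnd2 to the left, and the MCM genes other than Mcm3 and Mcm4 change sides.

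Probes of 1 gene did not always give the same value. Ccnb1 had 3 probes. The bright one, well above background on every array, gave 1.26 between the DEHP mice, and the 2 dim ones gave -0.05 and 0.00. The bright probes of Ccna1, Ccnb1 and Ccnd2, on which the cyclin values rest, have the following sequences, 60 bases each, 5′ to 3′ as the array files give them. Their positions are on mouse assembly mm7.
Ccna1 probe (chr3:55176600-55177744): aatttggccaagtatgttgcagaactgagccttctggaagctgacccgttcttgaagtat
Ccnb1 probe (chr13:97885282-97885341): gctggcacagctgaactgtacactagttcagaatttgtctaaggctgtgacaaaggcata
Ccnd2 probe (chr6:127163669-127163728): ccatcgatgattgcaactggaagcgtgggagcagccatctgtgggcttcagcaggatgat
The Ccna1 probe spans 1145 bases of the genome with its 60 bases, so it crosses a junction of exons. The other Ccnd2 probes that passed gave 0.17 and -0.44 where this one gave -0.96. The second Mki67 probe differed between groups by -0.59, the first by -0.37, and the 2 passing Tyms probes gave -0.10 and -0.08. Between the DEHP mice the Ccne2 probe used gave 1.32 and its dimmer passing probe 0.04, and the Cenpe probes gave 0.67 and 0.09. Of the 30 tested members, 24 rest on 1 probe that passed.

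The other genes of the pathway were read from 8 lists of 143 genes, of which 127 were tested. None passed the test in either direction, and 0 had an unadjusted p under 0.05. Their median difference was -0.03, with 55 above and 72 below 0. Of all 15827 genes, 7650 were above and 8177 below 0, which is the background for the counts by list. Origin licensing genes and helicase partners, which load and fire the MCM ring, had 12 of 16 below 0 with a median of -0.15. Mcm9, an MCM relative, differed by -0.59 (standard error 0.27) and Orc3, of the origin recognition complex, by -0.31 (0.19). Genes of the replication fork and nucleotides had 11 of 18 below 0 with a median of -0.08, among them Pold1, the catalytic subunit of polymerase delta, at -0.59 (0.25) and the primase Prim1 at -0.55 (0.26).

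Spindle, centromere and cytokinesis genes had 17 of 27 above 0 with a median of 0.07. Kif2c, a kinesin that takes microtubules apart, differed by 0.71 (standard error 0.32) and Kif4, a chromosome-bound kinesin, by -0.38 (0.19). CDK inhibitors and pocket proteins had 7 of 11 above 0 with a median of 0.12. Cdkn1c, the CDK inhibitor p57, differed by 0.90 (0.39) and Rbl2, the pocket protein p130, by 0.62 (0.42). Foxm1, a transcription factor of mitotic genes, differed by 0.65 (0.31) and E2f3 by -0.42 (0.30) in a list with 8 of 16 above 0. Other cyclins and CDKs had 5 of 11 above 0, with Ccnd3 at 0.49 (0.20) and Cdk6 at 0.41 (0.24). G2/M switch and checkpoint genes had 10 of 13 below 0, with the phosphatase Cdc25a at 0.55 (0.36) and the cohesin protector Sgo1 at -0.33 (0.22). The anaphase-promoting complex had 11 of 15 below 0, with its subunits Cdc27 at 0.35 (0.24) and Cdc23 at -0.28 (0.26). Foxm1 and Cdkn1c were highest in DEHP mouse 4, at 0.74 and 1.02, as Ccnb1 and Ccnb2 were. Of the other genes named from these lists, Rbl2, Cdc25a, Kif2c, Cdk6, Cdc27 and Ccnd3 were also highest in that mouse. Mcm9, Orc3, Pold1, Prim1, E2f3, Cdc23 and Kif4 were lowest in it. The share of all genes was not counted.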

How the data were processed

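Leydig cell RNA of 2 DEHP and 3 vehicle mice was hybridised on 12 two-colour arrays. The deposited scanner files hold spot intensity, per the file headers made with Feature Extraction 9.5.1.1 and not normalized between arrays, with the software's log10 ratio of red over green and 0 or 1 flags (deposited as scores). The authors' deposited value table gives log2 ratios of 13669 spots, with normalization and filter not given in the sources used here; it ran as DEHP over vehicle. The submitters' processing notes name limma.

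limma 3.58.1 under R 4.3.3 corrected background by normexp (offset 50), arrays were normalized by loess, and control and outlier-flagged spots were left out. Least squares on the 12 ratios, with a dye term, gave a value per mouse. The filter kept probes (21194 of 41174) that in 2 or more mice were well above background on 50% or more of the arrays, and the probe of highest mean intensity stood for a gene. The 5 mouse values were compared with lmFit and eBayes, with Benjamini-Hochberg adjustment over all genes and a threshold of 0.05. Single mice were compared on the 12 arrays (7 residual degrees of freedom). The number of arrays and of mice limits the precision. The functions were tested on simulated arrays.

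The members, the marker lists and the 8 lists of other cell cycle genes were chosen with earlier results of these data known. Besides the members and the markers Star, Insl3, Prm1, Sycp3 and Cd68, the 2 genes of lowest unadjusted p of each list could be named. Of the 15827 genes, 10548 were named by accession and 2414 keep the file's name. Alternatives covered background, normalization, filter, probe choice, dye, slide, pairing, left-out mice and the authors' table. Promoters came from RefSeq GRCm38.p6, with 27 of 33 members matched.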

Additional observations from a re-analysis of the deposited data

How the results depend on the processing

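Under all 17 alternatives that gave a test of DEHP against vehicle, limma called 0 genes and 0 members, with 14 to 1073 genes at an unadjusted p under 0.05. The median member difference kept within the spread between mice except without a DEHP mouse: leaving out each mouse in turn gave -0.12 to 0.13. A fit with the mouse number as a replicate block also called 0 genes, with a median of -0.0047; there Aurkb was -0.088, Bub1 -0.19 and E2f1 0.0071, each of opposite sign. Of the mouse numbers only 1 and 4 are shared by the groups. Across genes the deviations of same-numbered mice from their group means correlated at r = -0.73 and -0.56. The deviations of the 2 DEHP mice mirror each other, so these values cannot tell whether the numbers pair the mice. Of 590 member differences under alternatives, 43 changed sign, in 17 members, and the cause was not tested. On slide 1 alone Ccne1 was -0.058, E2f1 0.047 and Mcm4 0.050. On slide 2 alone Bub1 was -0.083, Ccne1 -0.35, Mcm3 -0.051, Mcm4 0.047, Top2a -0.023 and Tyms 0.023. On slide 3 alone Aurka was -0.15, Aurkb -0.26, Ccne2 0.036, Cdc20 0.0078, E2f1 0.073 and Tk1 0.017. Bub1 was -0.0065 with the scanner's processed signals, -0.028 in the authors' deposited table and -0.034 with scaling between arrays, where Ccne1 was -0.013. Leaving out each mouse in turn gave -0.096 to 0.22 for Aurka, -0.12 to 0.35 for Aurkb, -0.71 to 0.72 for Bub1, -0.20 to 1.29 for Ccna1, -0.18 to 1.08 for Ccnb1, -0.14 to 0.98 for Ccnb2, -0.032 to 0.32 for Ccnd1, -0.81 to 0.15 for Ccnd2, -0.29 to 0.33 for Ccne1, -0.94 to 0.38 for Ccne2, -0.10 to 0.060 for E2f1, -0.048 to 0.26 for Mcm3, -0.37 to 0.25 for Mcm4 and -0.31 to 0.10 for Tyms. With median centring in place of loess, 1 member was lower in DEHP mouse 4 than in DEHP mouse 1, beside 16.3% of all genes. There 1 was lower in vehicle mouse 1 than 2, beside 31.2% of all genes. Another 5 were higher in vehicle mouse 1 than 4 (18.8% of all genes) and 1 higher in vehicle mouse 2 than 4 (9.06%). In the authors' deposited table, with 22 members, 5 were lower in DEHP mouse 4, beside 43.1% of all genes. Members lower in vehicle mouse 2 than 4 numbered 9 without slide 1 and 7 without slide 2, beside 20.9% and 20% of all genes. A dye effect per slide could not be fitted, since slides 1 and 2 hold 1 orientation each; scaling between arrays and a dye effect for slides 1 and 2 with another for slide 3 were chosen after seeing the data.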

Other observations

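Over the 30 tested genes, DEHP mouse 4 was the highest of the 5 mice for 14 and the lowest for 7, and vehicle mouse 2 was the lowest for 10 and the highest for 2. The 7 lowest in DEHP mouse 4 were Ccnd2, E2f1, Mcm2, Mcm7, Tyms, Tk1 and Mki67. The 2 highest in vehicle mouse 2 were Mcm6 and Cdc20. These ranks were read after loess and were not tested. The share of all genes highest or lowest in each mouse was not counted, so the ranks are not a trait of these genes.

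The residual SD of the arrays around the fitted mouse values had a median of 0.074 on the log2 scale over the members and ran from 0.041 to 0.18. It was below the SD of the 5 mouse values for 26 of 30 members and above it for 4, E2f1, Mcm5, Tk1 and Top2a. Dye effects of the members ran from -0.10 for Mcm7 to 0.30 for Cenpf. The authors' deposited table held 22 of the 33 members.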
